A study of Homo sapiens with 21 samples.

Results

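The interleukin-1 (IL-1) family and the inflammasome were followed across 21 RNA libraries of a leukemia cell line by 10 genes chosen by name out of the 58174 gene identifiers listed for each library. The 10 genes were IL1A, IL1B, IL1RN, IL18 and IL33, which encode ligands and a receptor antagonist, IL1R1, IL1R2 and IL1RAP, which encode receptor chains, and NLRP3 and CASP1, which encode an inflammasome sensor and its protease. All 10 were listed in every library. The rule names the genes and uses no measured value, although the list was drawn up with earlier results of these data known.

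IL-1 alpha and IL-1 beta bind the receptor chain IL1R1, which then recruits the shared accessory chain IL1RAP and signals through MYD88 and IRAK kinases to NF-kB and MAP kinases. The IL-1 receptor antagonist, the product of IL1RN, occupies IL1R1 without recruiting IL1RAP, and IL1R2 is a decoy that binds IL-1 but lacks the signalling domain. Pro-IL-1 beta and pro-IL-18 are made inactive and are cut by caspase-1 once a sensor such as NLRP3 has assembled an inflammasome, whereas IL-33 is stored in the nucleus and acts on the receptor ST2, the product of IL1RL1, which also pairs with IL1RAP. In monocytic cells IL1B is known as an inducible transcript and NLRP3 as a limiting sensor.

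The libraries were made from polyA RNA of OCI-AML5, an established human acute myeloid leukemia line. Control cells were kept in DMSO, the vehicle, for 72 h or in UM171, a small molecule that promotes expansion of hematopoietic stem cells in culture, at 500 nM for 6, 24, 48 or 72 h, and sgEPCR cells, in which PROCR (the gene of the endothelial protein C receptor, EPCR) was targeted with CRISPR, were kept in DMSO or in 500 nM UM171 for 24 h, with 3 libraries in each of the 7 groups. The labels describe the sgEPCR cells as a clone, call their genotype both a knockdown and EPCR null, and name no guide for the control cells, while the study's text names a different dose and a different medium. The study's text also speaks of several independent sgEPCR clones and guides and of a control guide, sgAAVS1, and the labels do not tie any library to a clone or a guide. As the DMSO libraries of control cells are labelled 72 h and those of sgEPCR cells 24 h, genotype and time in DMSO cannot be told apart. In control cells the 72 h DMSO libraries are the reference for every UM171 time, so that UM171 and time in culture cannot be told apart at 6, 24 and 48 h. The labels name no separate cultures, so that p-values measure only the spread between these libraries, which may be technical.

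Library totals lay between 24.3 and 51.5 M counts, with a median of 33.9 M. Mitochondrial genes took between 7.73% and 13.5% of the counts in 19 libraries. The share was 35.9% in replicate 1 of sgEPCR DMSO and 32.2% in replicate 2 of sgEPCR UM171. For some fits of the members that rest on these 2 libraries, values without them are also given, while levels and marker sums include them. PROCR itself was at 3.68 ± 0.534 TPM (RSEM's level per transcript length, SD, n = 3) in control DMSO and 3.59 ± 1.15 TPM in sgEPCR DMSO, so that its RNA did not separate the genotypes in the vehicle. After 24 h of UM171 it was at 48.5 ± 0.0115 TPM in control cells and 7.19 ± 2.58 TPM in sgEPCR cells. Of the myeloid markers, CD33 lay between 34.6 and 178.7 TPM and LYZ between 357.1 and 1814 TPM over the 21 libraries, whereas CD14 and KIT did not exceed 0.42 and 0.25 TPM.

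IL1A, IL1B and IL1RN lie in the IL-1 gene cluster of chromosome 2 (GRCh38), IL1A at chr2:112773925-112784493 and IL1B at chr2:112829751-112836816 on the minus strand, and IL1RN at chr2:113099315-113134016 on the plus strand. IL1R2 (chr2:101991960-102028544) and IL1R1 (chr2:102064544-102179874) head a second cluster of receptor genes on the same chromosome. The other members are IL33 at chr9:6215786-6257983, IL1RAP at chr3:190514051-190659750 and NLRP3 at chr1:247416156-247449108, all on the plus strand, and IL18 at chr11:112143253-112164096 and CASP1 at chr11:105025397-105035250, both on the minus strand.

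The sequences upstream of IL1B and IL1RN are shown because results below turn on the levels of this pair, and those of IL33 and IL1R2 because both transcripts went from at or near 0 counts to clear detection. RefSeq windows (build GRCh38.p14) of 300 bases, 250 before and 50 after a start, were given for 8 of the 10 genes, 16 windows in all, and none for CASP1 and IL18. For IL1R2 and IL33 the window at the annotated start of the gene is shown, and for IL1RN the first of its 3 windows along the strand. The bases printed are the longest stretch before the start that no annotated exon covers, 5′ to 3′ on the gene's strand, and capitals mark matches, on either strand, to the motifs named beneath.
IL1B, chr2:112836817-112837029, minus strand: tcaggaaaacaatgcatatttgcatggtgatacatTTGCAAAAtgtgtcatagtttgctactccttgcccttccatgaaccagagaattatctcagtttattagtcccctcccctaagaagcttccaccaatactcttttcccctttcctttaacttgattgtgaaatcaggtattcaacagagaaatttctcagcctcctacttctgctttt
IL1RN, chr2:113117721-113117892, plus strand: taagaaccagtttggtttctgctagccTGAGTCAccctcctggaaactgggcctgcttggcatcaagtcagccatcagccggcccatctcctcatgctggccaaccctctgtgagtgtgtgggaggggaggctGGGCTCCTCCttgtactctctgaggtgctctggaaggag
IL33, chr9:6215557-6215785, plus strand: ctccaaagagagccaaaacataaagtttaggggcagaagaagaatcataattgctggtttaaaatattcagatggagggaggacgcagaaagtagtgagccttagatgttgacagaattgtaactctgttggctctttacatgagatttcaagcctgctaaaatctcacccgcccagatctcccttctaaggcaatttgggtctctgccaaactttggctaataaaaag
IL1R2, chr2:101991710-101991959, plus strand: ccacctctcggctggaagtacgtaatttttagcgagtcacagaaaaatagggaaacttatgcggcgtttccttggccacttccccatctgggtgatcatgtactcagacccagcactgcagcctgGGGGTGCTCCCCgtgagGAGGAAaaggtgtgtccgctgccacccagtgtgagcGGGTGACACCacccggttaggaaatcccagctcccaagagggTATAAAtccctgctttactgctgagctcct

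The motifs searched were GGGNNNNNCC for NF-kB, TGANTCA for AP-1, GAGGAA for ETS factors such as PU.1, TTGCNNAA for C/EBP and TATAAA for a TATA box. Of 35116 such windows of all genes, 58.7% held the NF-kB letters, 7.71% the AP-1 letters, 27.9% the ETS letters, 10.5% the C/EBP letters and 11.5% the TATA letters, so that the NF-kB letters were in most windows of any gene. The IL1B window held 1 C/EBP match and no other, at 215 bases before the start. The IL1RN window shown above held 4 NF-kB matches, of which 1 lies in the printed stretch, and 1 AP-1 match, and the other 2 windows of IL1RN held 1 NF-kB match each and 1 of them 2 TATA matches. The IL1R2 window shown held 4 NF-kB matches, 3 of them overlapping one another, 1 ETS match and 1 TATA match, the other IL1R2 window held none of the 5 motifs, and neither IL33 window held any of the 5 motifs. A match is a run of letters and not a bound site, and a window without a match says nothing of a factor.

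In control cells, transcripts of 3 ligand genes, IL1B, IL18 and IL33, and of the decoy receptor gene IL1R2 were higher in UM171 than in the 72 h DMSO libraries, and the time at which each was first called differed. IL1RN and NLRP3 were lower than in DMSO at every time, by less than 2-fold. Changes were tested with edgeR's quasi-likelihood test on rounded expected counts of 15 libraries, and a gene was called changed at a Benjamini-Hochberg adjusted p under 0.0001 over all genes tested and a change over 2-fold. Of the 10 genes, 8 had enough counts to be tested and IL1A and IL1R1 did not. At 6 h 1 of the 8 was called changed, against 7.03% of all genes tested, and at 24 h 4 of the 8, against 13.7%. At 48 h the number was 4 of 8, against 16.4% of all genes, and at 72 h 4 of 8, against 20.8%. Each called change was a rise. With an adjusted p under 0.05 and no minimum fold, 6 of the 8 passed at 6 h, against 62.1% of all genes, and 8 of 8 at 24 h (against 69.7%), 48 h (against 72.1%) and 72 h (against 75.6%). The 4 comparisons share the DMSO libraries.

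**Figure D1:**
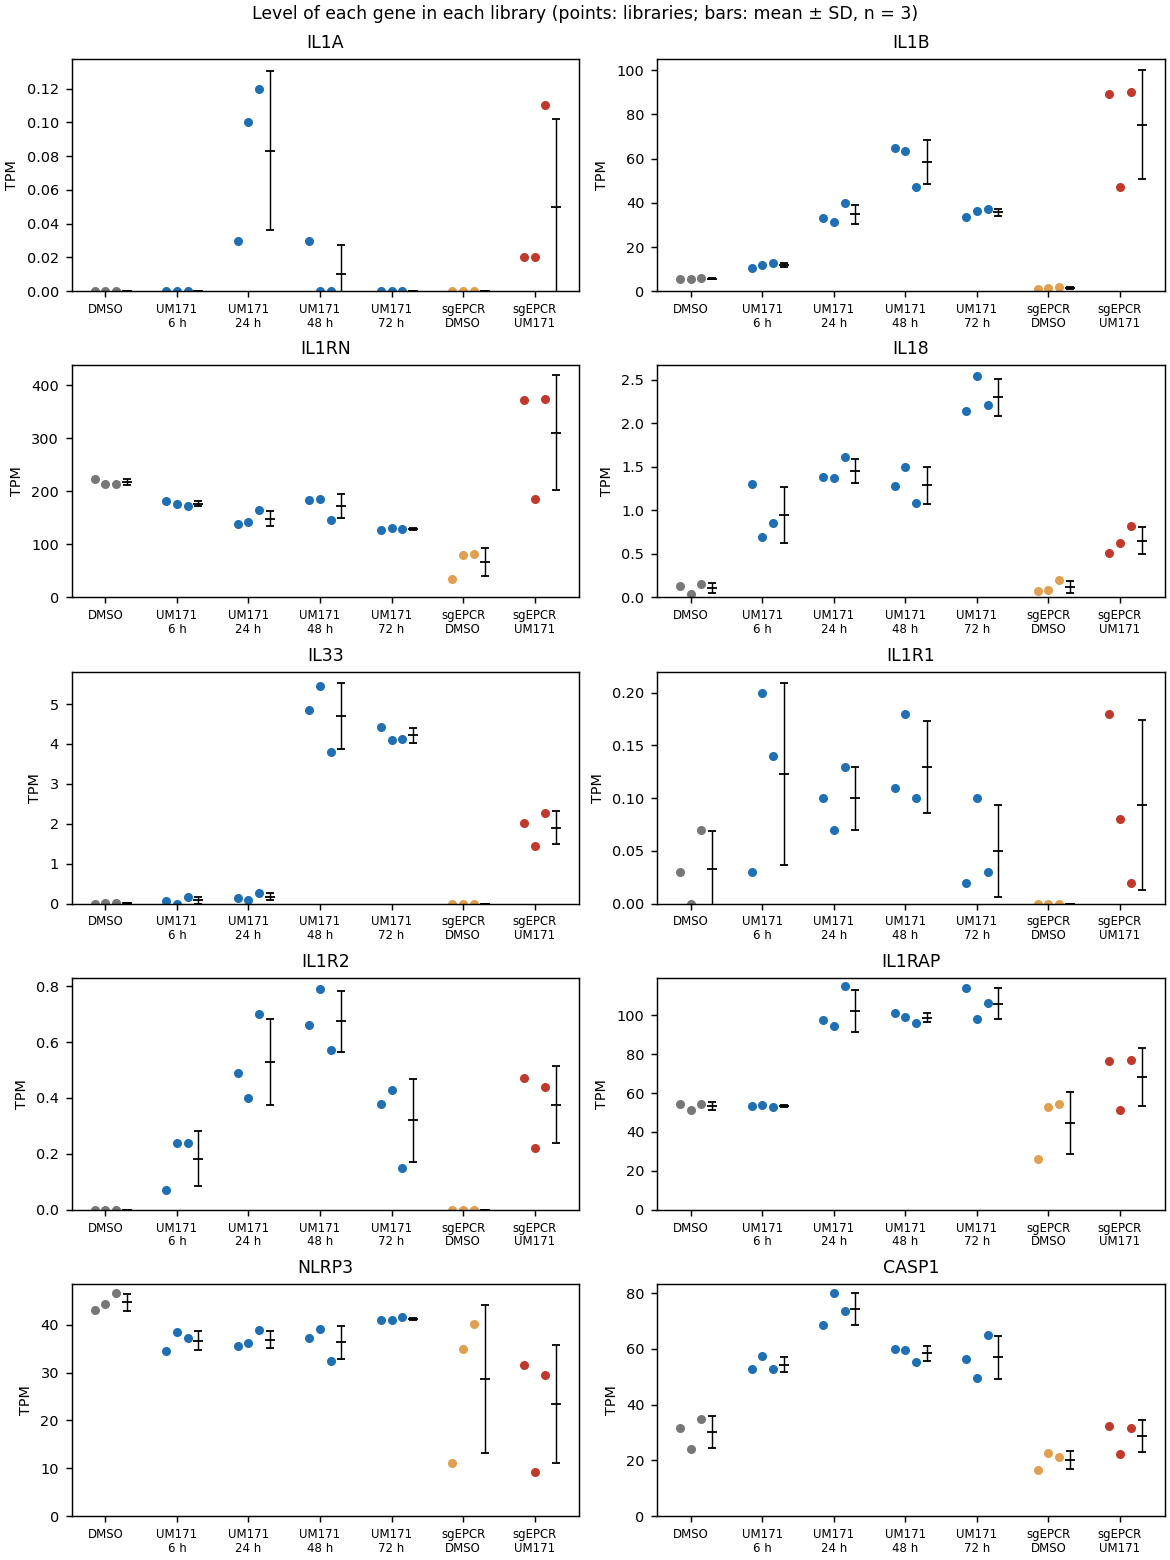
Level of each of the 10 genes in TPM (vertical axes, each from 0 with its own scale) in the 21 libraries by group (horizontal axes), with points for libraries and bars for the mean and SD of 3. The IL1B libraries lie between 5.39 and 5.77 TPM in DMSO and between 47.2 and 65.0 TPM at 48 h, while IL1RN is lower at each UM171 time than in DMSO.

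IL1B, the gene of IL-1 beta, rose in steps to a peak at 48 h. Its level was 5.62, 5.39 and 5.77 TPM in the 3 DMSO libraries and 10.7, 11.9 and 12.6 TPM at 6 h. It was 33.0, 31.5 and 39.8 TPM at 24 h, 65.0, 63.4 and 47.2 TPM at 48 h, and 33.7, 36.2 and 37.0 TPM at 72 h. Every UM171 library was above every DMSO library, and the 24 h and 72 h libraries overlapped each other. The log2 fold change against DMSO was 0.88 ± 0.10 (SE, adjusted p = 6.29e-07) at 6 h, which is under 2-fold, 2.65 ± 0.09 (adjusted p = 7.67e-14) at 24 h and 3.46 ± 0.09 (adjusted p = 1.67e-15) at 48 h. At 72 h it was 2.63 ± 0.09 (adjusted p = 3.86e-14). At 6 h total count scaling and the scale of log2(TPM + 0.1) put IL1B past 2-fold (log2 fold changes 1.06 and 1.05), so that the call at 6 h depends on the scaling.

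IL1RN, which encodes the antagonist of the same receptor, had the highest level per length of the 10 genes in all 21 libraries. In control cells it was at 223.8, 213.8 and 214.0 TPM in DMSO and at 181.7, 176.2 and 173.1 TPM at 6 h. It was at 139.2, 143.0 and 164.1 TPM at 24 h, 183.7, 186.1 and 146.2 TPM at 48 h, and 126.6, 131.0 and 129.0 TPM at 72 h. No UM171 library of control cells reached the lowest DMSO library. Its log2 fold change was -0.44 ± 0.06 (adjusted p = 1.01e-05) at 6 h, -0.54 ± 0.06 (adjusted p = 6.24e-07) at 24 h, -0.23 ± 0.06 (adjusted p = 0.00302) at 48 h and -0.76 ± 0.06 (adjusted p = 5.93e-09) at 72 h, under 2-fold each time.

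Because the agonist and antagonist genes went opposite ways in control cells, their ratio within a library moved further than either level. The ratio of IL1RN to IL1B in TPM does not depend on how libraries are scaled and is given as a description, with no test. It was 38.9 ± 1.53 (SD, n = 3) in DMSO and 15.2 ± 1.68 at 6 h. At 24 h it was 4.30 ± 0.221, at 48 h 2.95 ± 0.135, and at 72 h 3.62 ± 0.136. The ranges of DMSO, 6 h, 24 h, 48 h and 72 h did not overlap, and the lowest ratio fell at 48 h, when IL1B was highest.

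**Figure D2:**
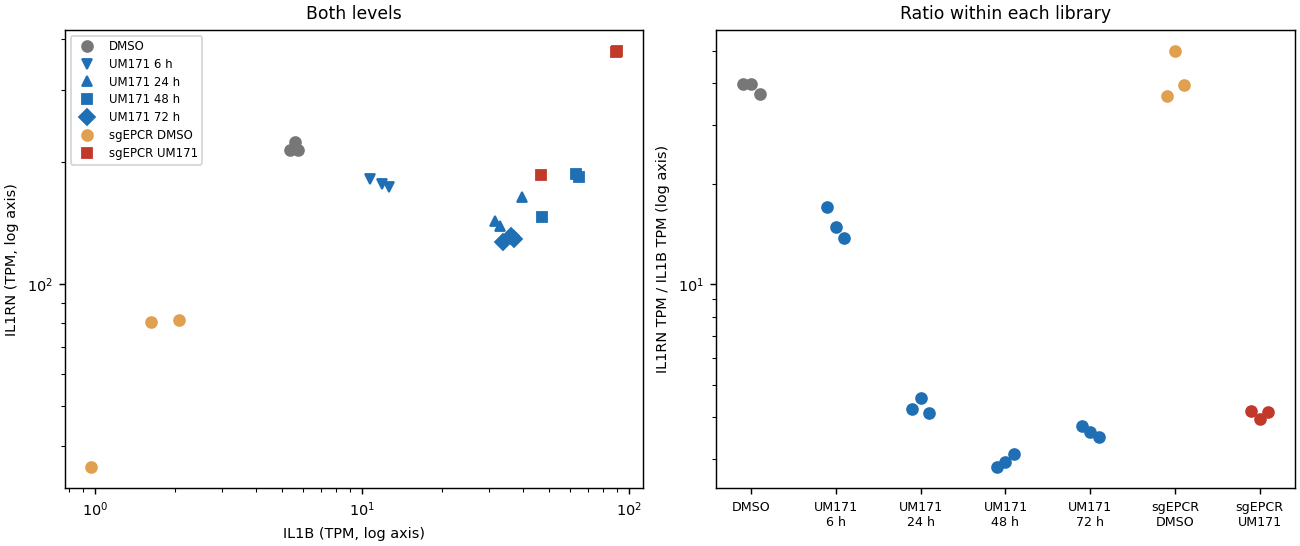
Left, IL1RN against IL1B in TPM on log axes, 1 point per library, by group. Right, the ratio of the 2 levels within each library on a log axis: it lies between 37.1 and 39.8 in control DMSO and between 36.5 and 49.9 in sgEPCR DMSO, and between 4.12 and 4.54 in control cells and between 3.95 and 4.17 in sgEPCR cells after 24 h of UM171.

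IL18, the other caspase-1 substrate, was past 2-fold at the first time sampled, at a low level. It was at 0.13, 0.04 and 0.15 TPM in DMSO and at 1.3, 0.69 and 0.85 TPM at 6 h. At 24 h it was at 1.38, 1.37 and 1.61 TPM, at 48 h at 1.28, 1.5 and 1.08 TPM, and at 72 h at 2.14, 2.54 and 2.21 TPM. No UM171 library overlapped the DMSO libraries, the 48 h libraries overlapped those of 6 h and 24 h in part, and 6 h and 24 h did not overlap. The log2 fold change was 3.03 ± 0.35 (adjusted p = 1.31e-06) at 6 h, 3.63 ± 0.33 (adjusted p = 3.14e-08) at 24 h, 3.70 ± 0.33 (adjusted p = 2.23e-08) at 48 h and 4.32 ± 0.31 (adjusted p = 9.57e-10) at 72 h. IL18 was the member called at 6 h, when IL1B and CASP1 were also higher than DMSO in every library but under 2-fold. The DMSO group held 8 counts of IL18 in all, against 69 at 6 h and 174 at 72 h.

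IL33, an alarmin gene, was nearly undetected for 24 h and then rose sharply. The DMSO libraries held 0, 1 and 1 counts, the 6 h libraries 4, 0 and 2, and the 24 h libraries 10, 5 and 7. At 48 h there were 340, 247 and 168 counts and at 72 h 216, 213 and 236. As levels these were 0.15, 0.10 and 0.27 TPM at 24 h, 4.84, 5.46 and 3.81 TPM at 48 h, and 4.43, 4.10 and 4.12 TPM at 72 h. The pooled ratio to DMSO, per count sequenced, was 9.72 at 24 h (95% interval 2.39 to 85.3, counting error only), 381.0 at 48 h (105.1 to 3152) and 335.9 at 72 h (92.6 to 2780), each against 2 DMSO counts. The step between 24 h and 48 h was itself called, with a log2 fold change of 5.27 ± 0.25 (adjusted p = 9.06e-11).

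IL1A, the gene of IL-1 alpha, stayed at the edge of detection. It had 0 counts in every DMSO, 6 h and 72 h library, 2, 7 and 4 counts at 24 h, and 2, 0 and 0 at 48 h. In sgEPCR cells it had 0 counts in DMSO and 1, 1 and 6 in UM171. At 24 h the group in control cells was at least 1.35-fold higher than DMSO set at a floor of 3 counts per library, and IL1A was not tested. Thus the 2 agonist genes of the same receptor, which are neighbours in the cluster, were measured at very different levels, at 35.7 ± 1.73 TPM for IL1B and 0 TPM for IL1A at 72 h.

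Between neighbouring times, 2 of the 8 genes were called from 6 h to 24 h, against 10.0% of all genes tested. These were IL1B (log2 fold change 1.77 ± 0.08, adjusted p = 8.28e-12) and IL1RAP. From 24 h to 48 h 1 of 8 was called, IL33, against 2.85% of all genes. With no minimum fold, 6 of 8 passed an adjusted p of 0.05 in the first of these steps, against 67.1% of all genes, and 5 of 8 in the second, against 45.7%. From 48 h to 72 h edgeR called 0 of 8, against 3.35%, although 4 of 8, against 57.3% of all genes, passed an adjusted p of 0.05 with no minimum fold, among them IL1B (-0.83 ± 0.07, adjusted p = 3.81e-08) and IL1RN (-0.53 ± 0.06, adjusted p = 1.77e-06).

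**Figure D3:**
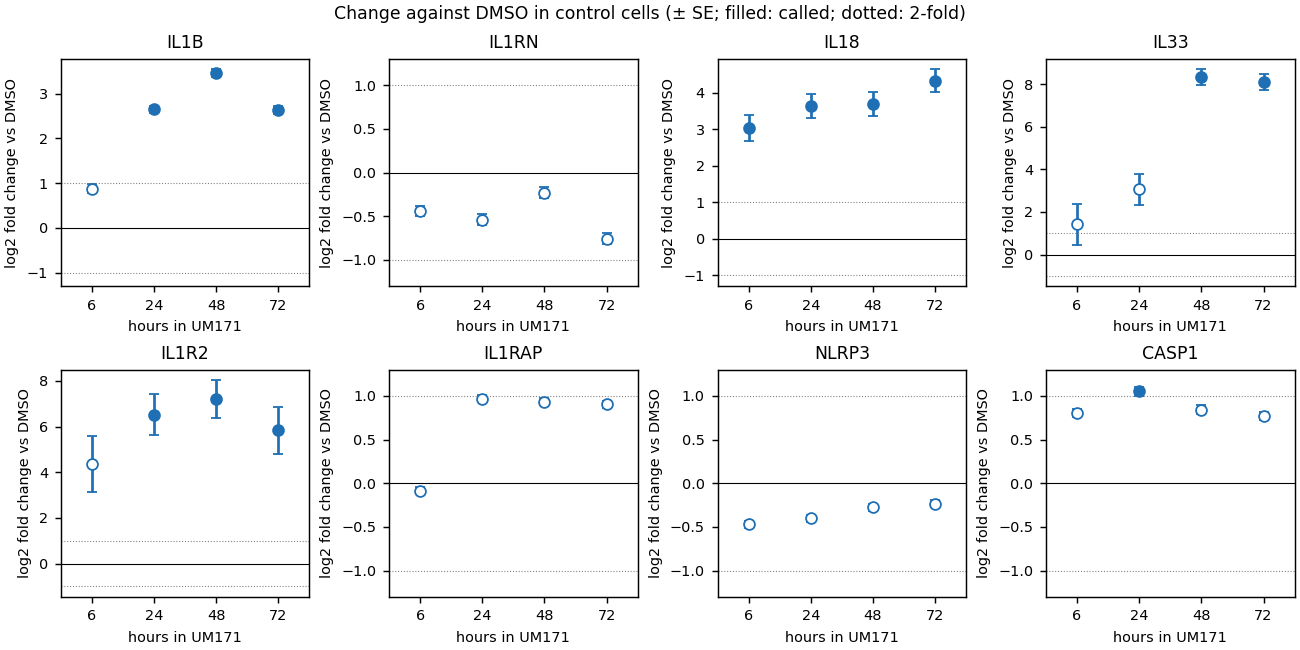
Fitted log2 fold change against DMSO (vertical axes, own scale each, bars SE) at 6, 24, 48 and 72 h of UM171 for the 8 tested genes in control cells, filled where called and with dotted lines at 2-fold. IL1B peaks at 48 h with 3.46, IL33 goes from 3.05 at 24 h to 8.32 at 48 h, and IL1RN and NLRP3 lie below 0 throughout; the values of IL1R2 rest on 0 counts in DMSO and have no interpretable size.

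Of the receptor genes, the accessory chain was abundant and both IL-1 binding chains were scarce. IL1RAP was at 54.5, 51.2 and 54.6 TPM in DMSO and 53.3, 53.7 and 52.7 TPM at 6 h. It was then at 97.3, 94.5 and 114.7 TPM at 24 h, 101.0, 99.1 and 96.0 TPM at 48 h, and 113.7, 97.8 and 106.4 TPM at 72 h. The 24 h, 48 h and 72 h libraries overlapped each other and lay above every DMSO and 6 h library. The log2 fold change against DMSO was 0.97 ± 0.04 (adjusted p = 7.51e-13) at 24 h, 0.93 ± 0.04 at 48 h and 0.90 ± 0.04 at 72 h, just short of 2-fold. From 6 h to 24 h it was 1.05 ± 0.04 (adjusted p = 6.48e-13), just past it, and total count, upper quartile and TPM scalings put this step at 0.90 to 0.94.

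IL1R2, the decoy receptor gene, had 0 counts in all 3 DMSO libraries. It had 1, 3 and 3 counts at 6 h, 11, 15 and 11 at 24 h, 22, 15 and 15 at 48 h, and 5, 10 and 6 at 72 h. With DMSO at a floor of 3 counts per library, it was at least 3.89-fold higher at 24 h, at least 5.88-fold at 48 h and at least 2.37-fold at 72 h. It was called at 24 h (adjusted p = 1.25e-05), 48 h (adjusted p = 1.55e-06) and 72 h (adjusted p = 8.85e-05). The 72 h call was lost, at adjusted p between 0.000107 and 0.000505, when any 1 of the 15 libraries other than UM171 6 h replicate 1 was left out.

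IL1R1, the signalling receptor gene, was at the edge of detection and was not tested. Its counts were 1, 0 and 3 in DMSO, 4, 5 and 5 at 6 h, 6, 5 and 4 at 24 h, 11, 9 and 6 at 48 h, and 1, 6 and 4 at 72 h. The pooled ratio to DMSO, against 4 DMSO counts, was 3.96 at 6 h (95% interval 1.24 to 16.5), 3.31 at 24 h (1.06 to 13.7), 6.56 at 48 h (2.28 to 25.9) and 2.78 at 72 h (0.823 to 12), and the interval at 72 h alone included no difference. In sgEPCR cells there were 0 counts in DMSO and 5, 3 and 2 in UM171. At no time did the group mean exceed 0.13 TPM, whereas IL1RAP did not fall below 26.2 TPM in any library.

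The inflammasome genes NLRP3 and CASP1 were both well expressed before treatment. NLRP3 was at 43.1, 44.4 and 46.6 TPM in DMSO and at 34.5, 38.4 and 37.1 TPM at 6 h. It was at 35.6, 36.1 and 39.0 TPM at 24 h, 37.3, 39.1 and 32.5 TPM at 48 h, and 41.0, 41.0 and 41.5 TPM at 72 h. Every UM171 library was below every DMSO library, with log2 fold changes of -0.47 ± 0.04 (adjusted p = 1.10e-07) at 6 h, -0.40 ± 0.04 (adjusted p = 3.47e-07) at 24 h, -0.28 ± 0.04 (adjusted p = 2.42e-05) at 48 h and -0.23 ± 0.04 (adjusted p = 0.000129) at 72 h. None of these reached 2-fold.

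CASP1, the protease that matures IL-1 beta and IL-18, was at 31.6, 23.9 and 35.0 TPM in DMSO and at 52.6, 57.5 and 52.9 TPM at 6 h. It was highest at 24 h, at 68.7, 80.1 and 73.8 TPM, and was at 60.1, 59.7 and 55.3 TPM at 48 h and 56.5, 49.7 and 65.1 TPM at 72 h. No UM171 library overlapped DMSO. Against DMSO the log2 fold change was 0.80 ± 0.05 (adjusted p = 7.71e-10) at 6 h, 1.05 ± 0.05 (adjusted p = 6.22e-12) at 24 h, where it was called, 0.84 ± 0.05 at 48 h and 0.77 ± 0.05 at 72 h. CASP1 shares near-identical sequence with CARD16 beside it (chr11:105041326-105101431), and RSEM splits shared reads, so that its level is uncertain.

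The genes that lie next to the members behaved unequally. Between IL1B and IL1RN lie IL37, IL36G, IL36A, IL36B, IL36RN and IL1F10, the other IL-1 family ligand genes, and 0 of these 6 had enough counts to be tested. IL37, the nearest of them to IL1B, had the highest group mean of the 6, at 0.123 TPM in control DMSO, and IL36A and IL36RN were listed at 0 in every group. In the receptor cluster IL1RL2, the next listed gene after IL1R1, stayed at or below a group mean of 0.0167 TPM, while IL1RL1, IL18R1 and IL18RAP further along were expressed.

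The receptor genes for IL-33 and IL-18 rose beside their ligand genes in control cells. IL1RL1, the IL-33 receptor gene, was at 0.0167 ± 0.0153 TPM in DMSO, 0.117 ± 0.0321 TPM at 24 h, 3.49 ± 0.901 TPM at 48 h and 5.57 ± 0.316 TPM at 72 h. Its log2 fold change was 7.62 ± 0.32 (adjusted p = 1.09e-12) at 48 h and 8.26 ± 0.30 (adjusted p = 1.36e-13) at 72 h, sizes that are uncertain at so low a DMSO level. From 24 h to 48 h, the same step in which IL33 rose, it was 4.74 ± 0.22 (adjusted p = 6.39e-11). IL18R1, a chain of the IL-18 receptor, went from 1.12 ± 0.164 TPM to 7.41 ± 0.469 TPM at 6 h (log2 fold change 2.48 ± 0.11, adjusted p = 2.19e-11), and IL18RAP, the other chain, from 14.7 ± 1.56 to 37.5 ± 3.13 TPM (1.13 ± 0.06, adjusted p = 1.31e-10), at the time when IL18 was called. IL1RL1 and IL18R1 overlap on the same strand (chr2:102311502-102352037 and chr2:102311529-102398777), which can mix their reads.

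Of the 8 other receptor and binding protein genes, 5 were tested, and 3 rose and 0 fell at 72 h, against 20.8% of all genes called, with a median log2 fold change of 1.94 against 0.02 over all genes. At 24 h, where 13.7% of all genes were called, 2 rose and SIGIRR, a negative regulator of IL-1 receptor signalling, fell, from 28.2 ± 2.08 to 6.69 ± 0.841 TPM (-2.23 ± 0.08, adjusted p = 3.58e-13). By 72 h SIGIRR was at 21.3 ± 0.566 TPM and was not called against DMSO.

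**Figure D4:**
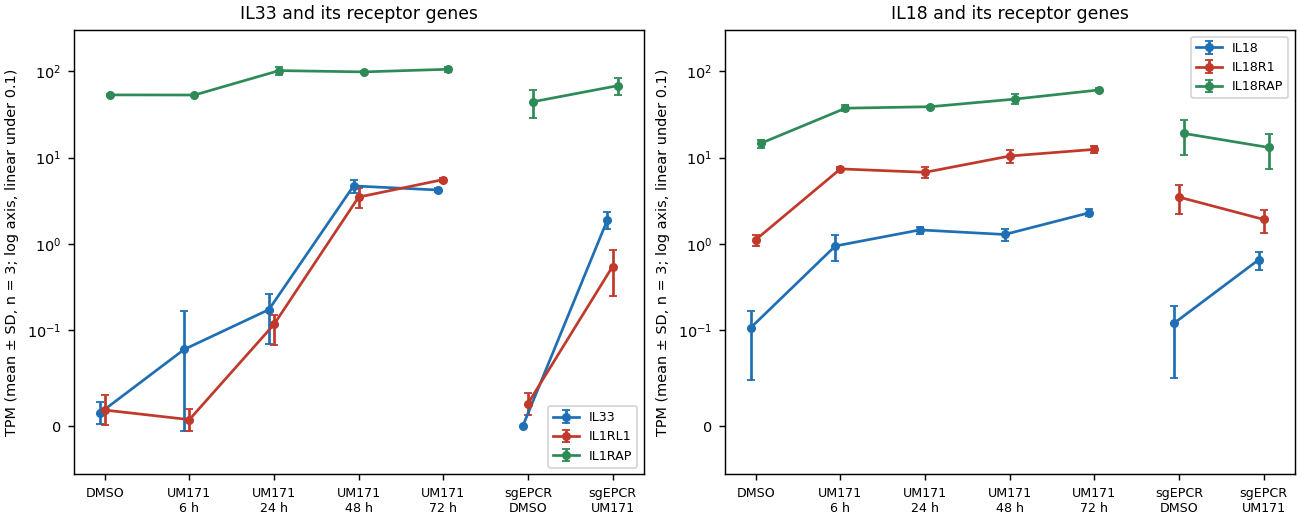
Mean level in TPM with SD (n = 3) on a log axis that is linear under 0.1, by group, for IL33 with its receptor genes IL1RL1 and IL1RAP (left) and for IL18 with IL18R1 and IL18RAP (right). IL33 and IL1RL1 both climb between 24 h and 48 h in control cells, while IL18, IL18R1 and IL18RAP are already higher at 6 h.

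Of the 13 adaptor and kinase genes of the IL-1 receptor, all of which were tested, the share called was near that of all genes at the later times. None was called at 6 h, 1 rose at 24 h (against 13.7% of all genes called), and 3 rose at 48 h (against 16.4%) and at 72 h (against 20.8%), with none falling and a median of -0.15 at 72 h against 0.02 over all genes. The 3 at 72 h were the ubiquitin ligase genes PELI2 (2.16 ± 0.06) and PELI1 (1.01 ± 0.06) and the kinase gene IRAK2 (1.04 ± 0.17, adjusted p = 2.77e-05). IRAK1, a kinase recruited by MYD88, was not called, at 136.1 ± 2.77 TPM in DMSO and 69.0 ± 0.926 TPM at 72 h.

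Among 21 other inflammasome sensor, adaptor and regulator genes, 15 were tested, of which 3 rose at 6 h (against 7.03% of all genes called) and 4 at 24 h (against 13.7%), then 7 at 48 h (against 16.4%) and 8 at 72 h (against 20.8%), while 1 fell, at 48 h. The median at 72 h was 1.06 against 0.02 over all genes. P2RX7, the ATP-gated channel known to trigger NLRP3, went from 0.373 ± 0.0577 TPM in DMSO to 13.2 ± 0.741 TPM at 72 h (log2 fold change 4.98 ± 0.09, adjusted p = 3.99e-17). NLRP1, a sensor gene, went from 0.737 ± 0.104 to 6.82 ± 0.663 TPM (3.67 ± 0.12, adjusted p = 2.63e-14), and the DNA sensor gene AIM2 rose by 5.01 ± 0.73 (adjusted p = 1.61e-05) on the log2 scale but stayed at 0.567 TPM. NLRC4, whose product senses bacterial proteins with NAIP, was highest at 6 h (1.68 ± 0.197 TPM, log2 fold change 3.28 ± 0.20), and NAIP was the gene that fell at 48 h (-1.10 ± 0.06). Thus some other sensor genes rose, AIM2 and NLRC4 at low levels, while NLRP3 did not. MEFV, a further sensor gene, was at 4.18 ± 0.306 TPM in DMSO and 2.31 ± 0.176 TPM at 72 h, and was not called lower.

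Of 10 other inflammatory caspase and pyroptosis genes, 7 were tested, and 1 rose at 24 h, against 13.7% of all genes, and 2 at 72 h, against 20.8%, which is near the share of all genes. These were GSDME, a gasdermin gene, which was called at every time and reached 18.4 ± 1.66 TPM from 1.71 ± 0.0520 TPM (3.27 ± 0.08, adjusted p = 1.69e-15), and GSDMB at 72 h (1.65 ± 0.14, adjusted p = 6.18e-09).

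Genes known to be induced by IL-1 signalling, many of which other NF-kB stimuli also induce, were called in part. Of the 18, 14 were tested, of which 2 rose at 6 h (against 7.03% of all genes called), 6 at 24 h (against 13.7%), 9 at 48 h (against 16.4%) and 9 at 72 h (against 20.8%), with none falling against DMSO and a median of 1.71 at 72 h against 0.02 over all genes. CCL2, a monocyte chemokine gene, went from 88.5 ± 7.33 TPM in DMSO to 2162 ± 325.8 TPM at 48 h (log2 fold change 4.62 ± 0.14, adjusted p = 1.71e-14). PTGS2, the gene of cyclooxygenase-2, was at 1.23 ± 0.319 TPM in DMSO and 25.4 ± 1.58 TPM at 72 h (4.41 ± 0.17, adjusted p = 2.17e-13). IL6 reached 2.92 TPM at 72 h from 0.06 TPM (6.42 ± 0.44, adjusted p = 5.15e-10), a fold of uncertain size at so low a DMSO level.

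Genes with the most similar pattern over the 21 libraries were found by Pearson's r of log2(TPM + 1) among 15624 genes, as a description in which all points share the same libraries. For IL33 these were GZMB (r = 0.993), HDC (r = 0.990) and HPGDS (r = 0.988), and for IL1B the most similar named genes were MGAM (r = 0.981) and LRP12 (r = 0.980). For IL18 they were WDFY3-AS2 (0.964), ACKR2 (0.961) and LY9 (0.959), and for CASP1 CDH7 (0.976) and PIGP (0.954). For NLRP3 they were NDE1 (0.985), EPN1 (0.984) and LDB1 (0.981), for IL1RAP ZFAND6 (0.966), USP32 (0.966) and GALNT6 (0.961), and for IL1RN RNF145 (0.943), EMP3 (0.941) and SLC17A7 (0.940). Among the members themselves r was highest between IL18 and CASP1 (0.816) and IL18 and IL1RAP (0.810), and only 0.613 between IL1B and IL1RN.

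Markers of other blood cells also changed over the time course. The summed level of 7 monocyte and macrophage markers lay between 830.0 and 951.5 TPM in DMSO, 1325 and 1534 TPM at 24 h, 1416 and 1766 TPM at 48 h and 1970 and 2247 TPM at 72 h, with LYZ the largest, and CD163 and MRC1 did not exceed 0.37 and 0.08 TPM in any library. The summed level of 6 mast cell and basophil markers lay between 45.0 and 46.1 TPM in DMSO, 122.0 and 168.4 TPM at 24 h, 271.8 and 334.7 TPM at 48 h and 374.9 and 388.8 TPM at 72 h. Both sums were higher at 48 h than in DMSO, as IL1B and IL33 were. From 48 h to 72 h both sums were higher again, while IL1B was lower and IL33 was not called. Of the 6, GATA2 had the highest maximum, at 218.9 TPM, and its lowest value in any library was 14.45 TPM. HDC, another of the 6, is among the genes most like IL33, whereas MS4A2 did not exceed 0.27 TPM. Of 4 neutrophil markers the sums went from between 115.9 and 121.1 TPM to between 68.2 and 72.4 TPM at 24 h and back to between 153.5 and 163.8 TPM at 72 h, with FCGR3B and CEACAM8 not above 0.03 TPM. The sums of 5 lymphocyte markers, between 17.8 and 77.1 TPM in control cells, were mostly NCAM1, and MS4A1 was listed at 0. The other sums stayed lower, at up to 20.2 TPM for 4 erythroid and megakaryocyte markers (nearly all ITGA2B) and up to 2.95 TPM for 5 epithelial and stromal markers, and those of 8 blast and progenitor markers lay between 165.2 and 235.1 TPM in control cells. The part of these markers in the results was not tested, and in bulk RNA fewer cells of a type and less RNA per cell cannot be told apart.

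The sgEPCR cells were compared with control cells to ask whether EPCR bears on the response to UM171. The response of control cells starts from 72 h in DMSO and that of sgEPCR cells from 24 h. Differences between the responses therefore carry time in DMSO as well as genotype, and these cannot be told apart. From DMSO to 24 h of UM171, IL1B rose more steeply in sgEPCR than in control cells, and IL1RN, which was lower in UM171 in control cells, rose. These calls depend on the fit, as given beside each gene. Of the 10 genes, 7 had enough counts for the fit of 12 libraries (IL1A, IL1R1 and IL1R2 did not). Between UM171 and DMSO in sgEPCR cells 3 of 7 were called, against 10.3% of all genes tested, and all 3 rose. Between genotypes 2 of 7 were called in DMSO, against 2.84%, and 3 of 7 after 24 h of UM171, against 4.46%. The difference between the 2 responses, an interaction term, was called for 2 of 7, against 7.77%. At an adjusted p under 0.05 with no minimum fold, 7 of 7 passed in sgEPCR cells (against 52.1% of all genes), 3 of 7 between genotypes in DMSO (against 33.7%), 5 of 7 between them in UM171 (against 43.0%) and 5 of 7 for the interaction (against 45.0%).

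Cell type markers differed between the genotypes as well. Of 7 tested blast and progenitor markers 4 were called in DMSO (2 higher and 2 lower in sgEPCR cells), against 2.84% of all genes. For the difference between responses 4 of these markers were called, against 7.77% of all genes. Their sums, over 8 genes, ranged in sgEPCR cells from 62.4 to 162.7 TPM with the vehicle and from 56.4 to 147.04 TPM with UM171, below the control libraries. The 4 neutrophil markers of these cells summed to 34.1 to 73.5 TPM with the vehicle and 28.6 to 62.8 TPM with UM171, against 115.9 to 121.1 and 68.2 to 72.4 TPM in control cells. The 7 monocyte and macrophage markers summed to 417.6 to 888.5 TPM with the vehicle and 698.5 to 1380 TPM with UM171, ranges that overlap those of control cells in both media. These ranges of sgEPCR cells include the 2 libraries of high mitochondrial share, and no sums without them are given. The part of these markers in the genotype differences was not tested.

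IL1B in sgEPCR cells was at 0.97, 1.62 and 2.07 TPM in DMSO and at 89.1, 46.9 and 90.2 TPM in UM171. The lower UM171 value and the lowest DMSO value are those of the 2 libraries with a high mitochondrial share. Compared with control cells, all 3 DMSO libraries were lower and all 3 UM171 libraries were higher than the 24 h libraries. The log2 fold change to UM171 was 5.31 ± 0.13 (adjusted p = 2.35e-09), against 2.66 ± 0.11 (adjusted p = 6.98e-08) in control cells in the same fit. The difference between the responses was 2.65 ± 0.16 (adjusted p = 8.22e-07), and 2.73 without the 2 libraries. It was no longer called with the replicate number as a block (adjusted p = 0.000662) or by limma on log2(TPM + 1) (adjusted p = 0.00258).

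The larger response was made of a lower start, in DMSO libraries of 24 h beside 72 h in control cells, and a higher end. In DMSO IL1B was lower in sgEPCR than in control cells, with a log2 fold change of -1.38 ± 0.12 (adjusted p = 1.67e-05), and in UM171 it was higher, with 1.27 ± 0.11 (adjusted p = 7.23e-06). The first call was lost when any 1 of the 3 control DMSO libraries or sgEPCR DMSO replicate 2 or 3 was left out (adjusted p from 0.000115 to 0.000167), and the second without UM171 24 h replicate 1 or 2 (adjusted p 0.000113 and 0.000102). Both calls were also lost with total count scaling (adjusted p = 0.000132 and 0.000495) and with only the groups compared in the fit (adjusted p = 0.00142 and 0.000547). The same held for limma on log2(TPM + 1) (adjusted p = 0.0108 and 0.0304) and on log2(TPM + 0.1) (adjusted p = 0.00569 and 0.0563). Without both high mitochondrial libraries the differences were -1.45 and 1.28.

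IL1RN in sgEPCR cells was at 35.4, 80.9 and 81.5 TPM in DMSO and at 371.4, 185.6 and 374.2 TPM in UM171. Every sgEPCR DMSO library was below every control library, and every sgEPCR UM171 library was above every control library at 24 h, while replicate 2 alone lay below control DMSO. On the log2 scale the rise was 2.02 ± 0.09 (adjusted p = 4.36e-08), against -0.53 ± 0.09 (adjusted p = 0.000533) in control cells. The difference between responses was 2.55 ± 0.12 (adjusted p = 2.54e-07), and 2.56 without the 2 libraries. IL1RN was likewise lower in sgEPCR cells in the vehicle (-1.27 ± 0.09, adjusted p = 3.29e-06) and higher in UM171 (1.27 ± 0.09, adjusted p = 2.08e-06). Both genotype calls were lost with total count scaling (adjusted p = 0.000151 and 0.000579), with only the groups compared in the fit (adjusted p = 0.00036 and 0.000465) and with limma on log2(TPM + 1) (adjusted p = 0.00854 and 0.0803). The rise in sgEPCR cells and the difference between responses were lost with the replicate block (adjusted p = 0.000121 and 0.000627) and with limma on log2(TPM + 1) (adjusted p = 0.000844 and 0.00377). The rise was also lost with only the groups compared in the fit (adjusted p = 0.000118).

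Although the levels of IL1B and IL1RN differed between genotypes in both media, their ratio did so little. The ratio of IL1RN to IL1B was 41.9 ± 7.06 in sgEPCR DMSO, beside 38.9 ± 1.53 in control DMSO, with overlapping ranges. After 24 h of UM171 it was 4.09 ± 0.118 in sgEPCR cells, beside 4.30 ± 0.221 in control cells, again with overlapping ranges. The interaction terms of IL1B and IL1RN, 2.65 and 2.55, were of like size. The high mitochondrial libraries had the lowest ratio of their group, at 36.5 beside 39.4 and 49.9 in DMSO and at 3.95 beside 4.15 and 4.17 in UM171.

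IL33 had 0 counts in all 3 sgEPCR DMSO libraries and 92, 90 and 116 counts in UM171, at 2.01, 1.45 and 2.26 TPM, which is at least 31.5-fold higher with DMSO at a floor of 3 counts per library (adjusted p = 9.01e-06). This rise was no longer called with the replicate number as a block (adjusted p = 0.00169) or with only the groups compared in the fit (adjusted p = 0.00114). The sgEPCR libraries at 24 h lay above every control library at 24 h and below every control library at 48 h. Between genotypes in UM171 the log2 fold change was 4.0 ± 0.40 (adjusted p = 7.92e-05), or 3.81 without the 2 high mitochondrial libraries. This call was lost, at adjusted p from 0.000102 to 0.000822, when any 1 of the 12 libraries other than sgEPCR DMSO replicates 1 and 2 was left out. It was also lost with total count scaling (adjusted p = 0.000199) and with only the groups compared in the fit (adjusted p = 0.000846). The same held for limma on log2(TPM + 0.1) (adjusted p = 0.0001455). The difference between responses had an adjusted p of 0.0181 and was not called. Mast cell and basophil markers summed to between 15.9 and 50.02 TPM in sgEPCR DMSO and between 83.1 and 205.0 TPM in sgEPCR UM171. In the same 2 groups IL1RL1 was at 0.0233 ± 0.0115 and 0.547 ± 0.295 TPM (log2 fold change 3.69 ± 0.47, adjusted p = 6.96e-05), a fold of uncertain size at so low a DMSO level.

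**Figure D5:**
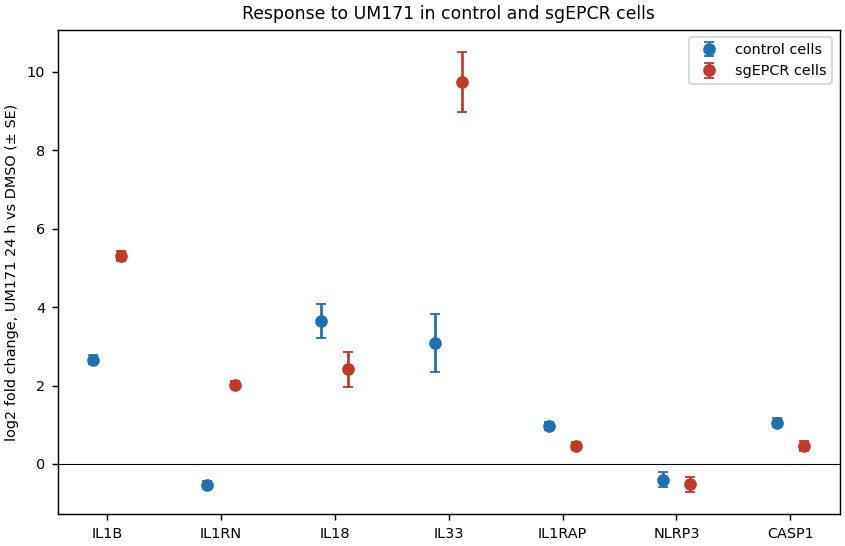
Fitted log2 fold change (vertical axis, bars SE) from DMSO to 24 h of UM171 for the 7 tested genes in control cells (blue) and sgEPCR cells (red). IL1B lies at 2.66 and 5.31 and IL1RN at -0.53 and 2.02, on opposite sides of 0; the sgEPCR value of IL33 rests on 0 counts in DMSO and has no interpretable size.

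Of the other members, none had a called difference between the responses. IL18 was at 0.07, 0.09 and 0.20 TPM in sgEPCR DMSO and 0.51, 0.63 and 0.82 TPM in UM171. Its log2 fold change was 2.42 ± 0.45 (adjusted p = 0.00102) against 3.64 ± 0.43 in control cells. The difference was -1.22 ± 0.68 (adjusted p = 0.172), or -1.49 without the 2 high mitochondrial libraries (adjusted p = 0.0902). CASP1 was at 16.7, 22.6 and 21.3 TPM in DMSO and 32.3, 22.3 and 31.7 TPM in UM171, so that no sgEPCR UM171 library reached the control libraries at 24 h, and the responses differed by -0.60 ± 0.16 (adjusted p = 0.0125), or -0.47 without the 2 libraries. IL1RAP was at 26.2, 52.7 and 54.5 TPM in DMSO and 76.5, 51.2 and 77.0 TPM in UM171, with a difference between responses of -0.51 ± 0.14 (adjusted p = 0.012), or -0.58 without them (adjusted p = 2.47e-07). IL1R2, which was not tested here, had 0 counts in sgEPCR DMSO and 9, 5 and 16 in UM171, at least 3.03-fold higher.

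NLRP3 in sgEPCR cells was lowest in 1 library of each group. It was at 11.1, 35.0 and 40.0 TPM in sgEPCR DMSO and 31.6, 9.17 and 29.5 TPM in sgEPCR UM171, the low values being those of the 2 high mitochondrial libraries. From DMSO to UM171 in sgEPCR cells its log2 fold change was -0.52 ± 0.19 (adjusted p = 0.0416), under 2-fold. Without these libraries it was -0.48 (adjusted p = 6.01e-08). The NLRP3 responses of the 2 genotypes differed by -0.12 ± 0.27 (adjusted p = 0.74), and by -0.07 without these libraries. Without them NLRP3 was lower in sgEPCR than in control cells, with a log2 fold change of -0.16 in the vehicle (adjusted p = 0.00116) and of -0.23 after UM171 (adjusted p = 5.08e-05), under 2-fold. The median log2 difference of all genes between genotypes in DMSO was -0.32 on the log2(TPM + 1) scale and 0.00 after TMM, the scale of the fold changes given here, and the direction of IL1RAP in DMSO (0.23 ± 0.10) turned to -0.04 with total count scaling.

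The wider pathway differed between the genotypes gene by gene. Of the 14 tested genes known to be induced by IL-1 signalling, 8 rose in sgEPCR cells and none fell, against 10.3% of all genes called, and the difference between responses was called above 0 for 4, against 7.77% of all genes, among them BIRC3 (difference 3.92 ± 0.46, adjusted p = 6.29e-05), PTGS2 (2.56 ± 0.24, adjusted p = 1.25e-05) and TNFAIP3 (2.25 ± 0.16, adjusted p = 2.50e-06), the second a prostaglandin synthase gene and the third a brake on NF-kB. The list's median difference was 1.13 against -0.02 over all genes. The IL-18 receptor genes went opposite ways in the 2 genotypes. In sgEPCR cells IL18R1 had a level of 3.49 ± 1.28 TPM with the vehicle and of 1.92 ± 0.576 TPM with UM171 (log2 fold change -1.04 ± 0.14, adjusted p = 0.000123, not called), against a rise of 2.69 ± 0.15 in control cells, and the difference was -3.74 ± 0.21 (adjusted p = 5.29e-07). It was higher in sgEPCR than in control cells in DMSO (1.99 ± 0.15, adjusted p = 5.75e-06) and lower in UM171 (-1.75 ± 0.14, adjusted p = 6.28e-06). The levels of IL18RAP there were 19.1 ± 8.45 and 13.1 ± 5.82 TPM (-0.69 ± 0.07, adjusted p = 1.64e-05, under 2-fold), against 1.43 ± 0.07 in control cells, with a difference of -2.12 ± 0.10 (adjusted p = 2.54e-07).

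Of 13 tested inflammasome genes 6 rose in sgEPCR cells, against 10.3% of all genes called, led by NLRP1 (4.61 ± 0.20, adjusted p = 3.67e-08) and P2RX7 (3.71 ± 0.21, adjusted p = 2.19e-07). The difference between responses was called above 0 for 4 of the 13, against 7.77% of all genes, and was largest for NLRP1 (4.03 ± 0.26). TXNIP, whose product binds NLRP3, had levels of 34.8 ± 14.6 TPM with the vehicle and 107.9 ± 25.9 TPM with UM171 in sgEPCR cells, beside 59.5 ± 2.80 and 37.6 ± 2.99 TPM in control cells at 24 h (difference 2.05 ± 0.14, adjusted p = 1.57e-06). At later times TXNIP was higher in control cells too, at 85.2 ± 7.73 TPM at 48 h and 341.2 ± 18.3 TPM at 72 h. NAIP at 24 h moved opposite ways, as TXNIP did at that time. It was at 2.79 ± 0.557 and 6.03 ± 1.43 TPM in sgEPCR cells, beside 16.3 ± 0.454 and 8.16 ± 0.763 TPM in control cells. The difference was 1.76 ± 0.20 (adjusted p = 5.19e-05), and neither of its responses was called. Of the 13 adaptor and kinase genes 1 rose (IRAK2, 1.79 ± 0.23, adjusted p = 7.22e-05) and 1 fell (IRAK3, -1.18 ± 0.08, adjusted p = 9.03e-07), against 10.3% of all genes called. The difference between responses was called for 1 of the 13, PELI2 (-1.56 ± 0.17, adjusted p = 3.39e-05), which is near the 7.77% of all genes. Of 7 caspase and pyroptosis genes, against 10.3% of all genes called, GSDME rose (1.08 ± 0.10), by less than in control cells (difference -1.35 ± 0.15, adjusted p = 3.86e-05).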

How the data were processed

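For each of the 21 libraries the authors deposited expected counts per gene from RSEM 1.2.28, without normalization and with reads shared between genes split, TPM, in which RSEM corrects for length and scales each library to the same sum, and a gene length, another column used only for identification. Per the labels the reads went through CASAVA 1.8.2, Trimmomatic 0.35, STAR 2.5.1b and GRCh38. The study's text names kallisto and sleuth for its statistics. The 45 Y pseudoautosomal entries of the 58219 were summed with their X counterparts, and 57392 of 58174 identifiers had a symbol.

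Expected counts were rounded and tested with edgeR 4.0.16 in R 4.3.3 (filterByExpr, TMM, glmQLFit and glmQLFTest, Benjamini-Hochberg adjustment). The time course used 15 libraries (16575 genes) and the genotypes 12 (15901 genes), with no term for the replicate number. SEs are the absolute log2 fold change over the square root of F. Calls needed an adjusted p under 0.0001, as in the study, and over 2-fold. TPM has no depth of its own and was used for levels. Intervals at 95% are exact, and floors of 3 counts per library and intervals cover counting error only. The steps were tested on simulated data. Tables and figures used Python 3.11.15, pandas 2.3.3 and matplotlib 3.10.9.

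The members and lists were chosen with earlier results of these data known. Named were all 10 members, PROCR, from each list up to 3 of the largest rises and falls among called genes per comparison, the 3 genes most like each member tested in both fits, and listed neighbours by position. List genes CARD17 and SOD2 had no entry under these symbols and were not analysed here. As alternatives, DESeq2 1.42.0 was run, and limma 3.58.1 with pseudocounts of 1 and 0.1 on log2 TPM, besides other scalings, filters, thresholds and sets of libraries, the replicate number as a block, and leaving out each library.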

Additional observations from a re-analysis of the deposited data

Results flagged for a closer look

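Of the 7 member genes tested, 5 had a response to 24 h of UM171 that differed between sgEPCR and control cells by the interaction term of edgeR at an adjusted p under 0.05, against 45.0% of all genes tested. The difference, sgEPCR minus control on the log2 scale, was 2.65 for IL1B (adjusted p = 8.22e-07) and 2.55 for IL1RN (adjusted p = 2.54e-07), both past the limits for a call, which they no longer passed with the replicate number as a block (adjusted p = 0.000662 and 0.000627) or by limma on log2(TPM + 1) (adjusted p = 0.00258 and 0.00377). It was 6.65 for IL33 (adjusted p = 0.0181), a value without interpretable size because the sgEPCR DMSO libraries had 0 counts, -0.60 for CASP1 (adjusted p = 0.0125) and -0.51 for IL1RAP (adjusted p = 0.012). IL1B was higher in UM171 in 3 of 3 libraries of both genotypes, and IL1RN was higher in 3 of 3 sgEPCR libraries but lower in 3 of 3 control libraries. As the DMSO libraries are labelled 24 h in sgEPCR cells and 72 h in control cells, genotype and time in DMSO cannot be told apart in these differences.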

How the results depend on the processing

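The 84 member and comparison pairs were recomputed under 1901 alternatives, of which 1802 kept the direction and side of the limits, 72 lost a call, 4 gained 1 and 23 changed sign, and 58 pairs were the same under all of theirs. With an adjusted p under 0.05 and no minimum fold the members changed were 6 at 6 h, 8 at 24, 48 and 72 h, 6 from 6 h to 24 h, 5 from 24 h to 48 h, 4 from 48 h to 72 h, 7 in sgEPCR cells, 5 between genotypes in UM171 and 5 for the interaction. With at least 10 counts in every library, which removes low genes from the test, they were 0 at 6 h, 2 at 24 h, 1 at 48 h, 1 at 72 h and 0 from 24 h to 48 h. Total count scaling gave 2 at 6 h, 1 from 6 h to 24 h, and 0 between genotypes in DMSO and in UM171, and upper quartile scaling 1 from 6 h to 24 h. Total count scaling moved the median of all genes by 0.18 at 6 h and by -0.25 between genotypes in DMSO. On log2(TPM + 1) limma called 0 at 6 h, 1 from 6 h to 24 h, 0 and 1 between genotypes in DMSO and UM171, and 0 for the interaction, and with 0.1 as pseudocount 2, 1, 0, 0 and 0. Fits of only the groups compared gave 1 in sgEPCR cells and 0 between genotypes in either medium. The cause was not tested except where stated.

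Same-numbered libraries of the time course did not deviate together, with r from -0.0827 to 0.0778 over 30 pairs. Over 3 pairs of sgEPCR libraries r went from -0.609 to 0.448, and 1 pair exceeded 0.1. Among sgEPCR libraries r was highest, at 0.688, between DMSO replicate 1 and UM171 replicate 2, the 2 of high mitochondrial share, so that pairing cannot be judged there. With the replicate number as a block the members called were 1 in sgEPCR cells, where IL1B stayed and IL1RN and IL33 were lost, and 0 for the interaction (IL1B adjusted p = 0.000662, IL1RN 0.000627), while IL1R2 was lost at 72 h (adjusted p = 0.000165). No such fit was run between genotypes, since the block lies within a genotype. Leaving out 1 library gave between 1 and 2 calls between genotypes in DMSO and between 1 and 3 in UM171.

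Signs turned in values near 0. IL1RAP turned at 6 h (0.0123 with upper quartile and 0.0998 with total count scaling), from 48 h to 72 h (0.0583 upper quartile, 0.0453 total count, 0.0142 with 10 counts, 0.0986 and 0.0994 on the TPM scales) and between genotypes in DMSO (-0.0401 total count, -0.329 and -0.337 on the TPM scales). NLRP3 turned from 6 h to 24 h (-0.0460 upper quartile, -0.0845 total count), from 24 h to 48 h (-0.0255 and -0.0262 on the TPM scales), and for the interaction (0.0184 upper quartile, 0.0221 total count). IL18 turned from 24 h to 48 h (-0.104 and -0.171 on the TPM scales) and CASP1 from 48 h to 72 h (0.0141 upper quartile, 0.00125 total count). Leaving out 1 library moved IL1RAP from 48 h to 72 h between -0.0651 and 0.000846 (turned without UM171 72 h replicate 2), NLRP3 at that step between -0.00523 and 0.0845 (turned without UM171 48 h replicate 3), and the NLRP3 interaction between -0.291 and 0.0767 (turned without sgEPCR UM171 replicate 2). Genes with few counts (IL1A, IL1R1, IL1R2, IL18 in DMSO) are limited by depth.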
